A study of Mus musculus with 12 samples.

Results

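The genes described here are 9 interferon-stimulated genes, *Rsad2*, *Cmpk2*, *Ifit1*, *Ifit2*, *Ifit3*, *Isg15*, *Irf7*, *Oasl2* and *Stat2*, which were picked by name out of 55487 gene identifiers measured by RNA sequencing of the mouse lens. The lenses were taken at postnatal day 7 (P7) from mice kept on the B6J background, in 4 genotypes with 3 libraries each. These were wild-type, *Trpm3*-KO (a knockout of the TRPM3 cation channel gene made by homologous recombination), *Trpm3*-I/M (heterozygous for a cataract-causing missense change that was knocked in by gene editing) and *Trpm3*-M/M (homozygous for the same change). Each library was a pool of RNA, given in the methods as 4 male and 4 female lenses, so that a library stands for several animals and the lens epithelium, the lens fibers and any adherent tissue were measured together. The design asks how the mutant channel differs from loss of the channel in its effect on lens gene expression while the cataract is forming.

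Interferons are secreted proteins that cells release on sensing virus or misplaced nucleic acid. Type I interferon binds its receptor, JAK kinases phosphorylate STAT proteins, STAT2 among them, and STAT2 joins IRF9 in a complex that binds the interferon-stimulated response element (ISRE) before many genes. The products block viral RNA, bind to other proteins as ubiquitin-like tags or feed back on the pathway itself. Many of these genes also have basal expression that does not need interferon. The lens is avascular after birth once its embryonic vessels regress, and it holds only epithelial and fiber cells.

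Counts on genes ran from 56162169 to 82090198 per library. *Trpm3* itself was at 251 to 285 CPM (read counts relative to the size of the library, after TMM scaling) in wild-type, 89.9 to 99.7 in the *Trpm3*-KO, 370 to 413 in the *Trpm3*-I/M and 469 to 484 in the *Trpm3*-M/M libraries, so that the knockout libraries were the lowest. *Trpm3*-I/M replicate 3 went against the pooling of both sexes, with *Xist*, which is transcribed from the inactive X, at 0.0721 CPM where the other libraries held 45.8 to 305 CPM, and with the highest summed level of 4 Y-linked genes, 69.1 CPM against 21.6 to 50.6 CPM. Results that rest on *Trpm3*-I/M are therefore given with and without it. The defining lens markers were abundant in every library, with the 8 lens fiber genes summing to at least 167807 CPM.

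In wild-type lenses *Rsad2* was the one well-expressed member. *Rsad2* encodes viperin, a radical SAM enzyme that makes a chain-terminating nucleotide from CTP. It fell 4.89-fold in the *Trpm3*-I/M and 19.4-fold in the *Trpm3*-M/M lenses. *Oasl2*, a 2'-5'-oligoadenylate synthetase-like gene, went the other way, and rose 11.7-fold in *Trpm3*-M/M lenses from a very low level. *Isg15* rose 2.48-fold and *Ifit1* fell 2.01-fold in *Trpm3*-M/M lenses, both with calls that depended on single libraries. *Cmpk2*, *Ifit2*, *Ifit3*, *Irf7* and *Stat2* passed no call against wild-type, and no member was called in *Trpm3*-KO lenses.

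The promoters of 4 members are shown because they belong to the members called in *Trpm3*-M/M against wild-type, 2 that fell and 2 that rose. They run from 250 bases before to 50 bases after the start site and were taken from RefSeq (GRCm38.p6), in which all 9 members were found. The ISRE core was searched as GAAA, any 2 bases, then GAAA again, on both strands, and its matches stand in capitals. Overlapping matches are joined into one run of capitals.
*Rsad2*, minus strand, chr12:26456403-26456702: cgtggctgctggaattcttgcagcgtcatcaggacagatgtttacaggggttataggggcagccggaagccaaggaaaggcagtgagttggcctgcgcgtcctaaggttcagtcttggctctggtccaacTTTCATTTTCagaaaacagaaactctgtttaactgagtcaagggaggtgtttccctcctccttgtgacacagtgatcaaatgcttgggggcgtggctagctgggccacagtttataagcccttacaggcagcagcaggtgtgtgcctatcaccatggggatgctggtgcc
*Ifit1*, plus strand, chr19:34640639-34640938: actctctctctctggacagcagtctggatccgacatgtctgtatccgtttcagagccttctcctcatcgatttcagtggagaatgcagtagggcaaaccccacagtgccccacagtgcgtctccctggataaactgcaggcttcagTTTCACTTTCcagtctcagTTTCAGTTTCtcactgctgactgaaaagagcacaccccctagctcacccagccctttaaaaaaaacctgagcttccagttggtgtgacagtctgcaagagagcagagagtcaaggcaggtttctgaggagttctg
*Isg15*, minus strand, chr4:156200769-156201068: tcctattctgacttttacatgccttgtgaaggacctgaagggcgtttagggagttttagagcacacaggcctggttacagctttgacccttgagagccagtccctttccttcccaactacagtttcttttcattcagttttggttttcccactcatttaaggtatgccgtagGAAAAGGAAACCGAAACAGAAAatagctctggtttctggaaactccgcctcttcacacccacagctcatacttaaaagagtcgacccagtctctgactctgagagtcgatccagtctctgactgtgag
*Oasl2*, plus strand, chr5:114896684-114896983: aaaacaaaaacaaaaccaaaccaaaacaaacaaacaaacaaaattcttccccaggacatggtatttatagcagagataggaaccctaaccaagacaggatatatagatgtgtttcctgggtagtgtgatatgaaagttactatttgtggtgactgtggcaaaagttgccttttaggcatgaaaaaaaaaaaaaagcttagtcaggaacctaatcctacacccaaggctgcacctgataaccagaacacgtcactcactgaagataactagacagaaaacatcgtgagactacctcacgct
*Rsad2* held 1 match beginning at position −120 from its start site, *Ifit1* held 2 beginning at −104 and −85, and *Isg15* held 3 overlapping ones beginning at −78, −72 and −66. *Oasl2* held none in this window.

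The core was found in 5 of the 9 members, *Ifit3* and *Stat2* besides those shown, while *Cmpk2*, *Ifit2*, *Irf7* and *Oasl2* had no match. Of all 27025 genes with a promoter in the same source, 3.99% had one with the core. A gamma-activated site, searched as TTC, any 3 bases, then GAA, which reads the same on both strands, was found in 1 member, *Ifit2*, and in 9.55% of all genes. Members with the core were found among those that fell, rose and passed no call. These matches are letters in a window and were not tested as binding sites.

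*Rsad2* and *Cmpk2* lie back to back on chromosome 12. In GRCm38 *Rsad2* runs from 26442746 to 26456452 on the minus strand and *Cmpk2* from 26469204 to 26479837 on the plus strand, with 12752 bases between their starts. *Ifit2*, *Ifit3* and *Ifit1* lie within 99.3 kb of chromosome 19, which also carries *Trpm3* 11.6 Mb away. *Isg15* is on chromosome 4, *Oasl2* on chromosome 5, *Irf7* on chromosome 7 and *Stat2* on chromosome 10. No annotated gene overlaps a member except that *Phrf1* shares 45 bases with *Irf7* on the opposite strand.

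The order of the members was read from the level scaled to exon length, in CPM per kilobase. In wild-type lenses *Rsad2* stood at 4.10 ± 0.363 CPM per kb (SD, n = 3), far above the next gene, *Stat2*, at 0.445 ± 0.0701 CPM per kb. *Ifit1* followed at 0.362 ± 0.0162 CPM per kb, within the range of *Stat2*. *Cmpk2* and *Ifit2* overlapped each other at 0.222 ± 0.0604 and 0.218 ± 0.0327 CPM per kb. Below them *Irf7*, *Isg15* and *Ifit3* overlapped their neighbours in that order, and *Oasl2* was last at 0.0128 ± 0.00679 CPM per kb, below every library of *Ifit3*. In *Trpm3*-M/M lenses *Rsad2* was at 0.212 ± 0.0434 CPM per kb, in the range of *Isg15*, *Ifit1* and *Cmpk2*, and *Stat2* was the highest member at 0.393 ± 0.0368 CPM per kb. The 9 genes, which spread widely around *Rsad2* in wild-type lenses, thus lay within a much narrower span of levels in *Trpm3*-M/M lenses.

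**Figure D1:**
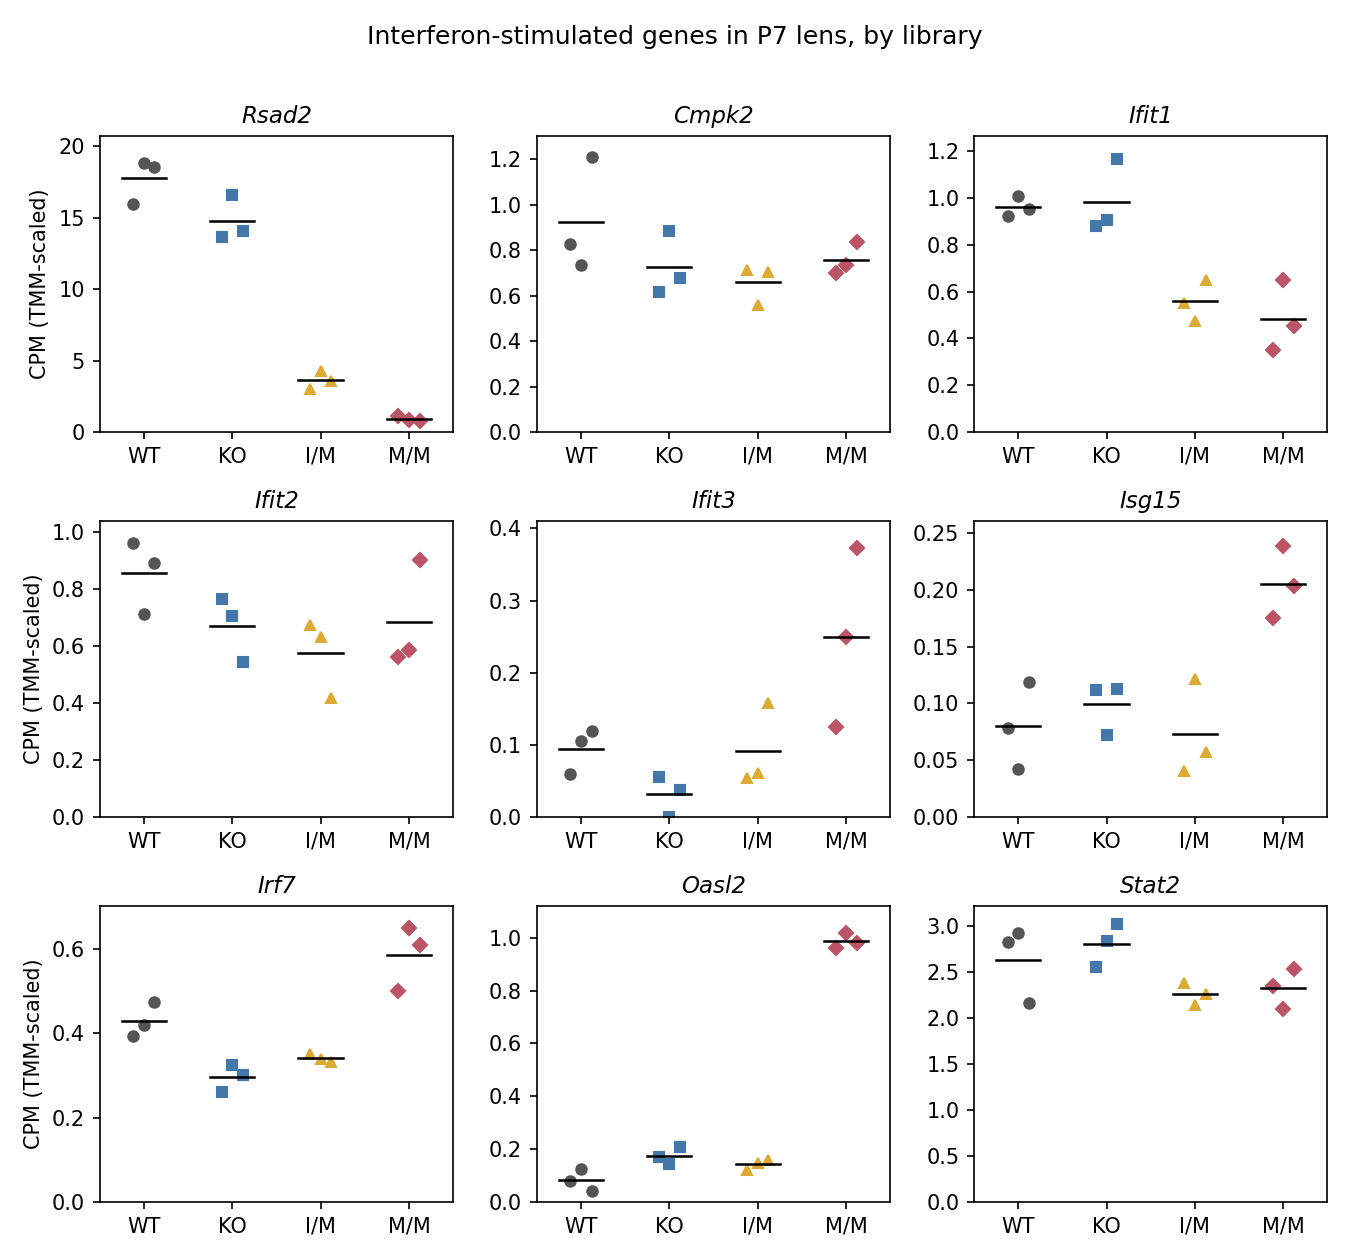
Level of each of the 9 interferon-stimulated genes in CPM after TMM scaling (y axis, linear and with its own range per panel) in the 3 libraries of wild-type (WT), *Trpm3*-KO (KO), *Trpm3*-I/M (I/M) and *Trpm3*-M/M (M/M) lenses. Points are libraries and bars are means. *Rsad2* stepped down from 17.8 CPM in wild-type to 3.62 in I/M and 0.921 in M/M, while *Oasl2* stood near 0 except in M/M, where it was at 0.988 CPM.

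The lenses were compared with edgeR's quasi-likelihood test over all tested genes with Benjamini–Hochberg adjustment, and a gene was called at a fold change of at least 2 with an adjusted p of at most 0.05. The study's filter, a CPM of at least 5 in at least 3 libraries, left 8984 genes and only *Rsad2* among the members. The other 8 were read from a fit chosen after seeing the data, on 17345 genes with a mean of at least 5 counts over all libraries whatever the genotype. All 9 members passed that filter, *Ifit3* only with its *Trpm3*-M/M counts, since its mean over the other 9 libraries was 4.26 counts. In this fit 4.59% of genes were called lower and 12.1% higher in *Trpm3*-M/M lenses against wild-type, so 2 lower and 2 higher of 9 members are to be read against those shares. In *Trpm3*-I/M lenses 1.83% of genes were called lower and 4.22% higher, and in *Trpm3*-KO lenses 0.548% lower and 0.427% higher.

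*Rsad2* stood at 16.0, 18.8 and 18.5 CPM in the wild-type libraries, on 812 to 935 counts. The *Trpm3*-KO libraries held 13.7, 16.5 and 14.0 CPM, the *Trpm3*-I/M libraries 3.05, 4.27 and 3.55 CPM and the *Trpm3*-M/M libraries 1.14, 0.824 and 0.801 CPM. The knockout overlapped wild-type, and the heterozygous and homozygous libraries each lay apart from all others. Against wild-type the log2 fold change was −4.28 ± 0.15 (SE) for *Trpm3*-M/M (adjusted p = 6.48e-11) and −2.29 ± 0.13 for *Trpm3*-I/M (adjusted p = 3.11e-08), among the 2.53% and 0.746% of genes called lower in these comparisons under the study's filter. *Trpm3*-M/M was also lower than *Trpm3*-I/M by −1.99 ± 0.16 on the log2 scale (adjusted p = 5.89e-07), where 1.02% of genes were called lower, so the 2 mutant genotypes differed from each other.

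The *Trpm3*-KO difference of *Rsad2* was −0.27 ± 0.12 on the log2 scale and passed neither the call nor the false discovery limit (adjusted p = 0.239). *Trpm3*-M/M lay 16.1-fold below *Trpm3*-KO (log2 fold change −4.01 ± 0.15, adjusted p = 1.13e-10), where 2.94% of genes were called lower. Without *Trpm3*-I/M replicate 3 the *Trpm3*-I/M difference from wild-type was −2.28 ± 0.15. The call in *Trpm3*-M/M and *Trpm3*-I/M held under every alternative that was fitted, from −4.42 to −3.77 and from −2.44 to −2.09 on the log2 scale. In these pools of whole lenses, fewer cells that express *Rsad2* and less *Rsad2* RNA per cell cannot be told apart.

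*Cmpk2*, the neighbour of *Rsad2*, encodes a mitochondrial nucleoside monophosphate kinase and is often induced together with it. It was at 0.826, 0.735 and 1.21 CPM in wild-type, 0.617, 0.886 and 0.676 in the *Trpm3*-KO, 0.715, 0.559 and 0.706 in the *Trpm3*-I/M and 0.700, 0.737 and 0.835 CPM in the *Trpm3*-M/M libraries. The *Trpm3*-M/M and *Trpm3*-KO libraries overlapped wild-type, and the *Trpm3*-I/M libraries lay just under it. The log2 fold change was −0.32 ± 0.21 for *Trpm3*-M/M (adjusted p = 0.233) and −0.49 ± 0.22 for *Trpm3*-I/M (adjusted p = 0.132), neither a call. The next gene beyond *Cmpk2*, *Sox11*, a neural transcription factor, rose by 3.67 ± 0.19 on the log2 scale with 2 mutant copies and by 1.92 ± 0.21 with 1 (adjusted p = 9.68e-10 and 1.16e-05), and *Rnf144a*, on the other side of *Rsad2*, rose by 1.39 ± 0.26 in the homozygous lenses (adjusted p = 0.000433). Of these 3 genes around *Rsad2*, none was called lower in a mutant genotype.

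**Figure D2:**
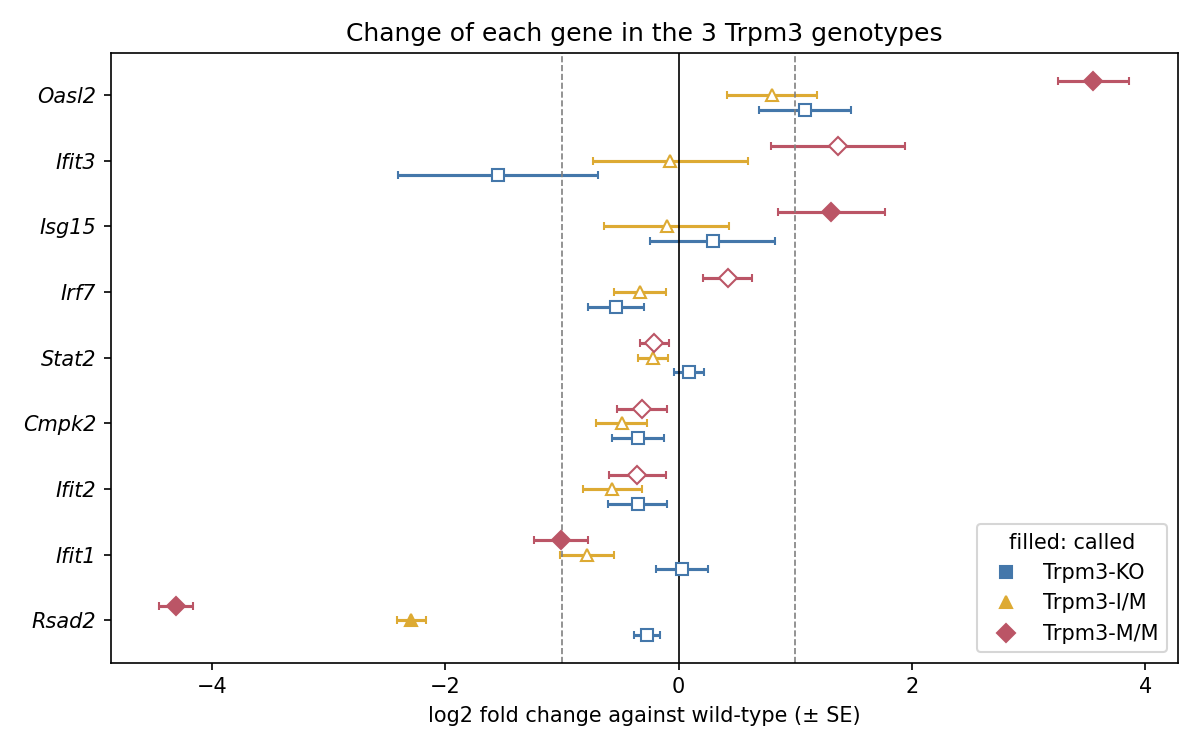
Log2 fold change against wild-type (x axis) with its standard error (bars) for each of the 9 genes (y axis) in the knockout, heterozygous and homozygous lenses, all from the fit on genes with a mean of at least 5 counts, 3 libraries per genotype. Filled symbols were called, and dashed lines mark a fold change of 2. *Rsad2* at −4.31 and *Oasl2* at 3.55 in *Trpm3*-M/M lie apart from the other genes, and no knockout symbol is filled.

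The *Ifit* genes encode tetratricopeptide repeat proteins that bind viral RNA lacking the host's cap methylation, and act as a complex. *Ifit1* was at 0.924, 1.01 and 0.951 CPM in wild-type and 0.879, 0.904 and 1.16 CPM in *Trpm3*-KO libraries. It was at 0.553, 0.474 and 0.649 CPM in the *Trpm3*-I/M and 0.350, 0.651 and 0.451 CPM in the *Trpm3*-M/M libraries. All 6 mutant libraries lay below all 6 others. The log2 fold change for *Trpm3*-M/M was −1.01 ± 0.23 (adjusted p = 0.00183), which is a call by a narrow margin, and −0.79 ± 0.23 for *Trpm3*-I/M (adjusted p = 0.0228), which passed the false discovery limit at less than 2-fold. The *Trpm3*-M/M call ended in 6 of 13 alternatives, among them DESeq2 at −0.99, leaving out wild-type replicate 2 at −0.97, *Trpm3*-M/M replicate 1 at −0.82 or replicate 3 at −0.95, and scaling by library size at −0.47.

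*Ifit2* and *Ifit3* differed in level and in pattern. *Ifit2* was at 0.963, 0.714 and 0.892 CPM in wild-type, 0.766, 0.705 and 0.545 in the *Trpm3*-KO, 0.674, 0.632 and 0.418 in the *Trpm3*-I/M and 0.563, 0.586 and 0.903 CPM in the *Trpm3*-M/M libraries. Its *Trpm3*-M/M libraries overlapped wild-type and its *Trpm3*-I/M libraries lay below it. The *Trpm3*-M/M libraries gave a log2 fold change of −0.35 ± 0.24 (adjusted p = 0.242), and the *Trpm3*-I/M value was −0.57 ± 0.25 (adjusted p = 0.125). *Ifit3* held 3.00 to 5.90 counts in wild-type, 0 to 3.00 in the *Trpm3*-KO, 3.84 to 10.55 in the *Trpm3*-I/M and 9.96 to 33.35 counts in the *Trpm3*-M/M libraries. The *Trpm3*-M/M libraries lay above wild-type without overlap, but the log2 fold change of 1.36 ± 0.57 just missed the false discovery limit (adjusted p = 0.0595).

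Against the other 2 genotypes the *Ifit3* values of *Trpm3*-M/M passed the call, but the gene was tested only because of its counts in that genotype, so these calls are given as a description. They were 1.44 ± 0.53 over *Trpm3*-I/M (adjusted p = 0.0429) and 2.92 ± 0.70 over *Trpm3*-KO (adjusted p = 0.00247) on the log2 scale. The libraries of *Trpm3*-M/M and *Trpm3*-I/M overlapped. The difference between them lost its call in DESeq2 (adjusted p = 0.0756), in a fit of the compared genotypes only (0.0600) and without 4 of the 6 libraries in turn (*Trpm3*-I/M replicates 1 and 2, *Trpm3*-M/M replicates 2 and 3), with adjusted p from 0.0797 to 0.191. Of the 50-base windows in its transcripts 51.2% also occur in *Ifit3b*, so its counts may have been split with that copy. *Ifit1* shares 7.13% of its windows with *Ifit1bl1* and *Ifit1bl2*, and *Ifit2* shares none. *Ifit1bl2*, which adjoins *Ifit1*, was at 0.734 CPM in wild-type, 0.405 in the *Trpm3*-I/M and 0.459 CPM in the *Trpm3*-M/M lenses and fell by 0.85 and 0.70 on the log2 scale (adjusted p = 0.0394 and 0.0404), both under 2-fold. On the far side of *Ifit1*, *Slc16a12*, a creatine transporter of lens fibers, rose by 1.32 ± 0.05 in *Trpm3*-M/M (adjusted p = 2.54e-11).

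*Isg15* encodes a ubiquitin-like protein that is joined to target proteins. It was at 0.0786, 0.0420 and 0.119 CPM in wild-type libraries, or 4, 2 and 6 counts. It held 0.112, 0.0723 and 0.113 CPM in the *Trpm3*-KO, 0.0404, 0.122 and 0.0577 in the *Trpm3*-I/M and 0.175, 0.239 and 0.203 CPM in the *Trpm3*-M/M libraries. Each *Trpm3*-M/M library lay above all 9 others. The log2 fold change against wild-type was 1.31 ± 0.46 (adjusted p = 0.0266) and against *Trpm3*-I/M 1.41 ± 0.42 (adjusted p = 0.0149), both called on at most 22 counts per library. The first call was lost in DESeq2 (adjusted p = 0.0766), without a filter on counts (0.0685) and without wild-type replicate 1 (0.0676), wild-type replicate 2 (0.108) or *Trpm3*-M/M replicate 2 (0.0727), with log2 fold changes of 1.02 to 1.35, and the second without *Trpm3*-I/M replicate 3 (0.0558), *Trpm3*-I/M replicate 1 (0.0672) or *Trpm3*-M/M replicate 2 (0.0509).

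*Oasl2* was at 0.0786, 0.126 and 0.0396 CPM in wild-type, 0.168, 0.145 and 0.207 in the *Trpm3*-KO and 0.121, 0.146 and 0.159 CPM in the *Trpm3*-I/M libraries, each on 2 to 12 counts. In *Trpm3*-M/M libraries it was at 0.963, 1.02 and 0.982 CPM, on 77 to 94 counts. The 3 *Trpm3*-M/M libraries lay close together and far above all 9 others. The log2 fold change was 3.55 ± 0.31 against wild-type (adjusted p = 1.82e-07), 2.75 ± 0.26 against *Trpm3*-I/M (adjusted p = 9.69e-07) and 2.47 ± 0.26 against *Trpm3*-KO (adjusted p = 1.55e-06), and the call against wild-type held in all 14 alternatives fitted. Its neighbour and paralog *Oasl1* was at 0.0745 CPM in wild-type and 0.0988 CPM in *Trpm3*-M/M lenses, under the filter, and *Oasl2* shares 0.138% of its windows with other genes. The *Trpm3*-KO libraries also lay above wild-type without overlap, at a log2 fold change of 1.08 ± 0.40 that did not pass the false discovery limit (adjusted p = 0.217).

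The pair of transcription factors among the members passed no call in the fit used here. IRF7 drives late interferon production, and STAT2 is the signal transducer specific to type I and type III interferons. *Irf7* was at 0.393, 0.420 and 0.476 CPM in wild-type, 0.262, 0.326 and 0.301 in the *Trpm3*-KO, 0.351, 0.340 and 0.332 in the *Trpm3*-I/M and 0.5001, 0.651 and 0.609 CPM in the *Trpm3*-M/M libraries. Its 3 *Trpm3*-M/M libraries were the highest of the 12, yet the difference from wild-type was 0.42 ± 0.21 on the log2 scale (adjusted p = 0.107). Against *Trpm3*-I/M it was higher by 0.75 ± 0.20 (adjusted p = 0.00799) and against *Trpm3*-KO by 0.96 ± 0.22 (adjusted p = 0.00173), past the false discovery limit and under 2-fold. Scaling by library size alone took both past the call (1.09 and 1.44), and so did leaving out *Trpm3*-KO replicate 2 (1.03) or *Trpm3*-M/M replicate 1 (1.06) for the second.

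*Stat2* was at 2.83, 2.92 and 2.16 CPM in wild-type, 2.56, 2.84 and 3.02 in the *Trpm3*-KO, 2.39, 2.14 and 2.26 in the *Trpm3*-I/M and 2.35, 2.10 and 2.54 CPM in the *Trpm3*-M/M libraries. All mutant libraries overlapped wild-type. Its log2 fold changes against wild-type were −0.21 ± 0.13 for *Trpm3*-M/M (adjusted p = 0.187), −0.22 ± 0.13 for *Trpm3*-I/M (adjusted p = 0.256) and 0.09 ± 0.13 for *Trpm3*-KO (adjusted p = 0.821). The sign of the *Trpm3*-M/M value of *Stat2*, *Cmpk2* and *Ifit2* turned when libraries were scaled by their size alone, a scaling that moved the median of all genes by 0.52 on the log2 scale.

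For the 8 members below the study's filter an exact two-sided permutation test on CPM was also run, in which 3 libraries against 3 cannot go below p = 0.1. In *Trpm3*-M/M against wild-type that smallest p was reached by *Ifit1*, *Ifit3*, *Isg15*, *Irf7* and *Oasl2* (exact permutation p = 0.1 for each), while *Stat2* and *Ifit2* had p = 0.3 and *Cmpk2* p = 0.5 in the same exact test. The smallest p was therefore reached by members that edgeR called and by some that it did not. The share of all genes that reach it was not counted, so the number of members that did is no result about them. In the edgeR fit on a mean of at least 5 counts 9071 of 17345 genes passed the false discovery limit in this comparison. In *Trpm3*-KO against wild-type edgeR called 0 of 9 members, with 3 at an unadjusted p under 0.05, and DESeq2 called 0. In *Trpm3*-I/M against wild-type edgeR called only *Rsad2* of the 9, and DESeq2 also called 1. In *Trpm3*-M/M against wild-type DESeq2 called 2 members, *Rsad2* and *Oasl2*. Across members the median log2 fold change of the knockout was −0.27, that of the heterozygote −0.33 and that of the homozygote −0.21, beside 0.00, −0.01 and −0.01 over all tested genes.

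Between *Trpm3*-M/M and *Trpm3*-I/M the same fit called *Oasl2* and *Isg15* higher and *Rsad2* lower in *Trpm3*-M/M, besides *Ifit3*, which had entered through that genotype. Over all tested genes 8.75% were called higher and 2.24% lower. The count of 4, *Ifit3* included, was 2 without *Trpm3*-I/M replicate 1 or without *Trpm3*-M/M replicate 2, and 3 without *Trpm3*-I/M replicate 3. Between *Trpm3*-M/M and *Trpm3*-KO, *Oasl2* was called higher and *Rsad2* and *Ifit1* lower, besides *Ifit3* as above, where 12.8% of genes were called higher and 5.42% lower. *Ifit1* lay at −1.04 ± 0.23 there (adjusted p = 0.00127), a call that was lost without *Trpm3*-KO replicate 3 (−0.90), without *Trpm3*-M/M replicate 1 (−0.85) or replicate 3 (−0.98) and by library size (−0.55). These comparisons and those with wild-type share libraries and are not independent of each other. The count of 4 members called in *Trpm3*-M/M against wild-type was 2 without wild-type replicate 2, *Rsad2* and *Oasl2*, and under scaling by library size it was 3 higher and 1 lower in place of 2 and 2. Without *Trpm3*-I/M replicate 3, which lacked *Xist*, *Ifit1* lay at −0.90 ± 0.26 against wild-type (adjusted p = 0.0280), and no member but *Rsad2* was called there. In the same setting the homozygous lenses differed from the heterozygous ones by 2.83 ± 0.31 in *Oasl2* (adjusted p = 9.82e-06), 2.06 ± 0.62 in *Ifit3* (adjusted p = 0.0182), 0.73 ± 0.24 in *Irf7* (adjusted p = 0.0274) and −2.00 ± 0.18 in *Rsad2* (adjusted p = 3.65e-06).

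The rest of the interferon pathway was read from lists of 152 genes that leave out the 9 members. No interferon gene was expressed to speak of. Of 21 interferon genes 6 had any count, and the highest count of any of them in a library was 3, for *Ifnk*. The receptors were present, with *Ifnar1*, a chain of the type I receptor, at 15.7 ± 1.19 CPM in wild-type and 19.2 ± 1.00 CPM in *Trpm3*-M/M lenses (SD, n = 3), and *Ifngr2*, a chain of the type II receptor, at 6.35 ± 0.569 and 8.34 ± 0.802 CPM. None of the 4 tested receptor chains was called under the study's filter in any comparison with wild-type. All 4 were higher in *Trpm3*-M/M past the false discovery limit, by 0.29 to 0.73 on the log2 scale (edgeR adjusted p from 2.27e-05 to 0.0109). Over all 8984 tested genes 2820 were higher past that limit. *Jak1*, the kinase of both receptors, was at 24.5 ± 0.540 CPM in wild-type and 33.7 ± 1.41 CPM in *Trpm3*-M/M lenses, higher by 0.46 ± 0.04 on the log2 scale (adjusted p = 1.03e-06) and under 2-fold.

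Under the study's filter 39 of the 152 pathway genes were tested, and in *Trpm3*-M/M against wild-type 7 were called higher and 1 lower, beside 6.42% and 2.53% of all tested genes. The gene that fell was *Trex1*, the exonuclease that clears cytosolic DNA, from 166 ± 5.91 CPM in wild-type to 34.3 ± 7.89 CPM in *Trpm3*-M/M lenses (log2 fold change −2.28 ± 0.14, adjusted p = 1.04e-08). In *Trpm3*-I/M lenses it was at 119 ± 15.7 CPM, a change of −0.48 ± 0.13 that passed the false discovery limit only (adjusted p = 0.0132). *Socs3*, an inhibitor of JAK signalling, rose by 1.09 ± 0.09 in *Trpm3*-M/M (adjusted p = 3.08e-07). It alone of the 7 reached the filter without the *Trpm3*-M/M libraries, and the other 6 passed through the group where they were high, so their number is no support for a rise of the pathway.

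Among these 6 were *Shisa5*, *Ly6e*, *B2m*, *H2-K1* and *H2-D1*. *B2m*, the light chain of class I major histocompatibility molecules, was at 2.16 ± 0.374 CPM in wild-type, 2.60 ± 0.0712 in the *Trpm3*-I/M and 17.1 ± 3.19 CPM in the *Trpm3*-M/M lenses. The class I heavy chains *H2-K1* and *H2-D1* were also highest in *Trpm3*-M/M lenses. *H2-K1* was at 1.92 ± 0.344 CPM in wild-type, 1.62 ± 0.181 in the *Trpm3*-I/M and 7.56 ± 1.31 CPM in the *Trpm3*-M/M lenses. *H2-D1* was at 0.983 ± 0.126, 1.37 ± 0.164 and 9.86 ± 2.35 CPM in the same order. *Ly6e* and *Shisa5* went from 2.24 ± 0.327 and 2.10 ± 0.286 to 5.04 ± 0.706 and 4.86 ± 0.294 CPM.

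The other most abundant genes of each list passed no call. *Traf3* and *Mavs*, adaptors of the RNA sensors, were at 27.4 ± 0.962 and 18.5 ± 1.00 CPM in wild-type and 27.0 ± 0.402 and 18.3 ± 0.803 CPM in *Trpm3*-M/M lenses. *Ifitm2*, a membrane protein that blocks viral entry, was higher by 0.43 ± 0.07 on the log2 scale (adjusted p = 7.61e-05), and *Nlrc5*, an activator of class I genes, was lower by −0.44 ± 0.17 (adjusted p = 0.0346), both under 2-fold. *Znfx1*, an RNA helicase-like sensor, was higher by 0.49 (adjusted p = 0.000334). *Pias1*, *Irf2*, *Irf3* and *Psme1* differed by 0.11, −0.15, 0.26 and 0.09 on the log2 scale and passed neither limit (adjusted p = 0.0634, 0.153, 0.0720 and 0.197). In *Trpm3*-KO against wild-type edgeR called 0 of the 39 genes, with 9 at an unadjusted p under 0.05, and DESeq2 called 0. Over all 8984 tested genes edgeR called only 21 higher and 30 lower there, so 0 of 39 is near that share. In *Trpm3*-I/M lenses 1 of the 39 was called higher and 0 lower, beside 2.58% and 0.746% of all tested genes, and the count was the same without *Trpm3*-I/M replicate 3.

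**Figure D3:**
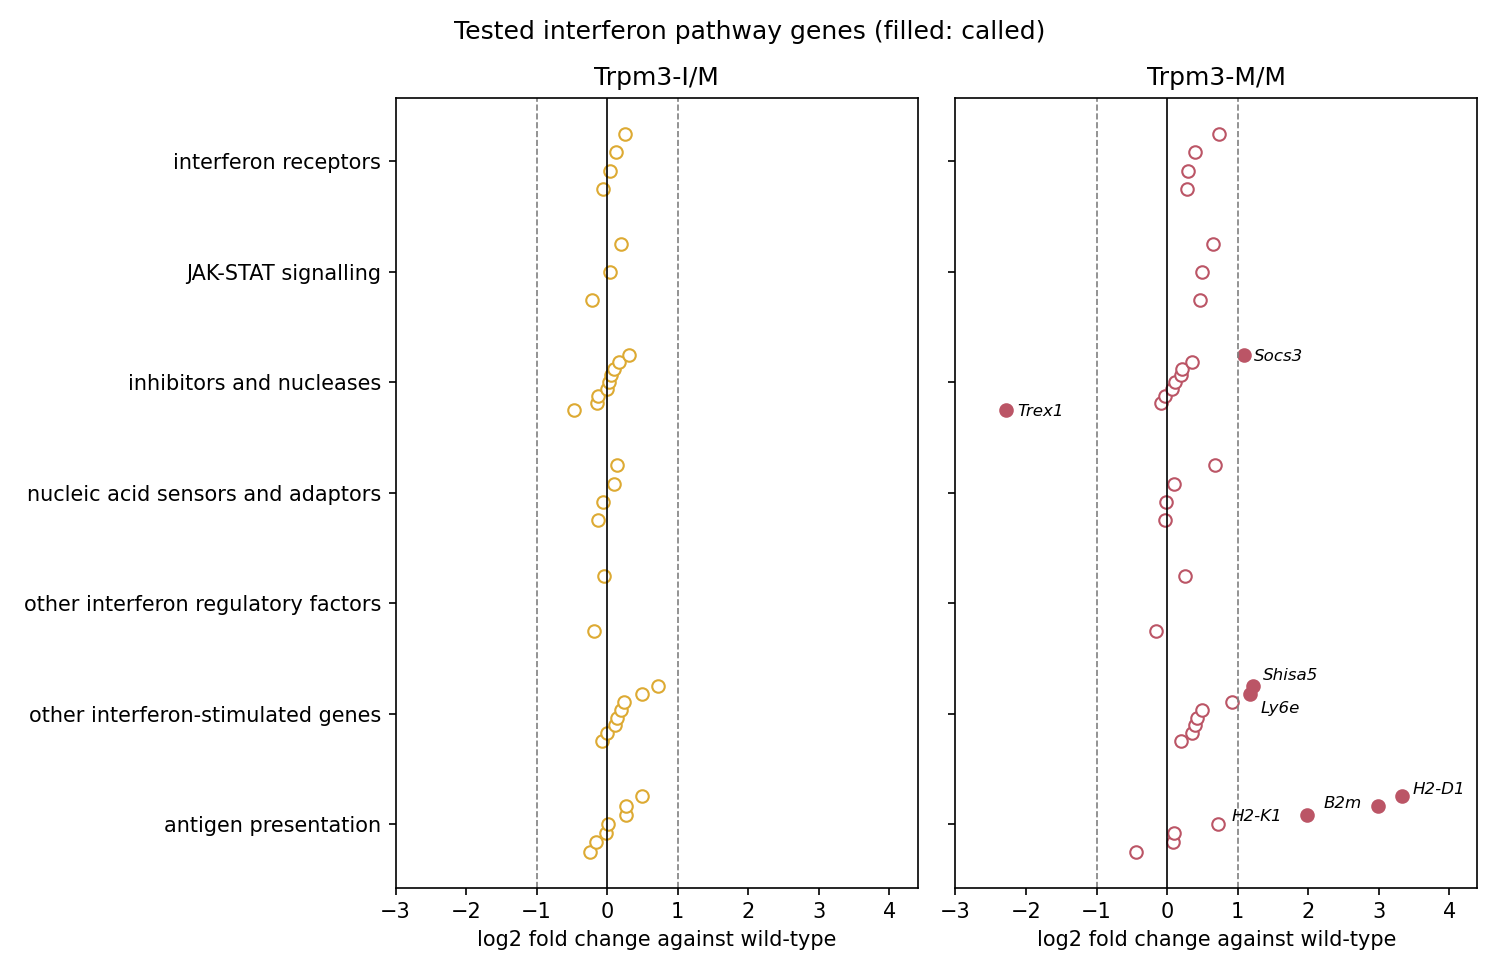
Log2 fold change against wild-type (x axis) of 37 of the 39 interferon pathway genes that passed the study's filter, by list (y axis), in *Trpm3*-I/M (left) and *Trpm3*-M/M lenses (right). Filled points were called and named, and dashed lines mark a fold change of 2. Of the genes drawn, none was called on the left, while on the right *Trex1* was called lower and 6 genes higher.

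In the fit on a mean of at least 5 counts 106 of the 152 genes were tested, and of these 39 rose and 3 fell past the call in the *Trpm3*-M/M lenses, of which 24 and 3 would have passed that filter without the *Trpm3*-M/M libraries. The other interferon-stimulated genes gave 19 of 42 tested genes higher and 1 lower, the interferon-inducible GTPases 5 of 9 higher and antigen presentation 10 of 15 higher, beside 12.1% of all genes. Without the *Trpm3*-M/M libraries 11, 1 and 7 of these would have passed the filter. The 3 that fell were *Trex1*, *Mx1* and *Usp18*, the protease that removes ISG15 from proteins. *Mx1* and *Usp18* are named after their values were seen. *Usp18* was at 0.555 ± 0.0851 CPM in wild-type and 0.218 ± 0.127 CPM in *Trpm3*-M/M lenses (log2 fold change −1.37 ± 0.40, adjusted p = 0.00948), and *Mx1* was at 0.600 ± 0.262 and 0.288 ± 0.0676 CPM (−1.08 ± 0.37, adjusted p = 0.0234). The most abundant GTPases, *Gbp7* and *Irgm1*, differed by −0.53 and 0.72 (adjusted p = 0.00753 and 0.0197), under 2-fold. In *Trpm3*-I/M lenses 5 of the 106 were called higher and 0 lower by edgeR, with 9 lower at an unadjusted p under 0.05. Over all tested genes 4.22% were called higher and 1.83% lower there. Without *Trpm3*-I/M replicate 3 there were 4 called higher. Under scaling by library size 60 rose and 1 fell past the call in the *Trpm3*-M/M lenses, in place of 39 and 3. The same scaling took all 17345 tested genes from 2091 higher and 797 lower to 3728 and 320.

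Some lists of markers of cells other than lens cells, such as macrophage and vascular endothelium, were also higher in *Trpm3*-M/M lenses. Others, such as the lymphocyte list, were not. The part of these cells in the results was not tested. The summed level of 12 macrophage markers was 0.476 to 0.727 CPM in wild-type, 0.470 to 0.523 in the *Trpm3*-KO, 1.25 to 1.38 in the *Trpm3*-I/M and 10.98 to 22.05 CPM in the *Trpm3*-M/M libraries, with *Ptprc* at 0 counts in wild-type. All 11 macrophage markers tested were called higher for *Trpm3*-M/M against wild-type and 1 for *Trpm3*-I/M. Over all tested genes 12.1% and 4.22% were called higher in these comparisons, and the same shares apply to the marker lists below. Outside *Trpm3*-M/M the list summed to at most 1.38 CPM, so its markers may have passed the filter only through that genotype. Their calls are therefore given as a description. *Oasl2*, *Isg15*, *Ifit3* and the class I genes had their highest mean levels in *Trpm3*-M/M too. The macrophage markers summed there to 10.98, 22.05 and 13.0 CPM in replicates 1 to 3. In that order *Oasl2* was at 0.963, 1.02 and 0.982 CPM and *Isg15* at 0.175, 0.239 and 0.203 CPM. *Ifit3* was at 0.125, 0.249 and 0.372 CPM, with replicate 1 below *Trpm3*-I/M replicate 3 at 0.159 CPM. *Cd74*, the invariant chain of class II molecules and a marker of antigen-presenting cells, was at 0.0330 ± 0.0413 CPM in wild-type, 0.0842 ± 0.00291 in the *Trpm3*-I/M and 2.95 ± 1.16 CPM in the *Trpm3*-M/M lenses. The 5 dendritic cell markers summed to 0 to 0.0396 CPM in wild-type, 0.1495 to 0.181 in the *Trpm3*-KO, 0.0243 to 0.0674 in the *Trpm3*-I/M and 0.288 to 0.466 CPM in the *Trpm3*-M/M libraries, and the 1 that was tested was called higher in *Trpm3*-M/M. That marker may likewise have passed the filter only through *Trpm3*-M/M, so its call is a description too. The 5 neutrophil markers summed to at most 0.0451 CPM in any library. The 9 lymphocyte markers summed to between 1.44 and 2.66 CPM, with *Cd3e* and *Cd8a* at 0 counts in every genotype.

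The vascular endothelium list of 9 markers summed to 13.9 to 16.3 CPM in wild-type libraries. The sum was 24.97 to 31.5 CPM with 1 mutant copy and 58.9 to 67.9 CPM with 2, and 8 markers were called higher in each mutant genotype. The median log2 fold change of its markers was 5.28 for homozygous and 3.56 for heterozygous lenses, more than the sum rose. The sum therefore does not show how far a typical marker rose. Some of these markers may have passed the filter only through mutant libraries, which was not tested, so their calls are given as a description. The list of pericytes and fibroblasts went from 106 to 120 CPM in wild-type to 143 to 188 CPM in *Trpm3*-M/M libraries, with 5 of 8 tested called higher and 2 lower. The same list summed in *Trpm3*-I/M libraries to 98.4 to 105 CPM, with 4 called higher and 0 lower. Its median log2 fold change was 5.12 with 2 mutant copies and 1.69 with 1, so its sum does not show the typical marker either. The markers called higher may again have passed the filter only through mutant libraries, and these calls are a description too. Photoreceptor markers summed to 0.651 to 0.872 CPM in wild-type and 1.52 to 4.13 CPM in *Trpm3*-M/M, and cornea markers to 0.236 to 0.436 and 3.66 to 6.72 CPM. In *Trpm3*-M/M against wild-type 6 of 7 tested photoreceptor markers and 2 of 2 tested cornea markers were called higher. These may likewise have passed the filter only through *Trpm3*-M/M, so the calls are a description. Red blood cell markers ran from 1.07 to 15.0 CPM and pigmented cell markers from 2.53 to 5.89 CPM over all libraries, with no red blood cell marker called by edgeR against wild-type and 1 pigmented cell marker called higher in *Trpm3*-I/M.

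The summed lens markers were lowest in the *Trpm3*-M/M libraries, though single markers were not all lowest there. The 8 lens fiber genes summed to 250055 to 274360 CPM in wild-type, 241428 to 263994 in the *Trpm3*-KO, 205358 to 218769 in the *Trpm3*-I/M and 167807 to 174123 CPM in the *Trpm3*-M/M libraries. The 4 lens epithelium genes summed to 262 to 297 CPM in wild-type and 149 to 154 CPM in *Trpm3*-M/M libraries. In *Trpm3*-M/M against wild-type 1 of 8 fiber and 1 of 4 epithelium genes was called lower. *Foxe3*, a transcription factor of the lens epithelium, was at 90.8 ± 14.0 CPM in wild-type, 46.7 ± 6.89 in the *Trpm3*-I/M and 19.2 ± 1.81 CPM in the *Trpm3*-M/M lenses, and *Pax6*, the eye field factor, at 85.4 ± 4.92, 64.8 ± 1.46 and 55.6 ± 1.49 CPM. *Gja1*, a connexin, was lowest with 1 mutant copy, at 40.2 ± 1.97, 16.0 ± 1.47 and 20.6 ± 3.68 CPM, and *Cdh1*, E-cadherin, was at 58.6 ± 7.33, 70.8 ± 2.44 and 56.5 ± 3.87 CPM in the same order. The part of the lens markers in the fall of *Rsad2* was not tested.

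**Figure D4:**
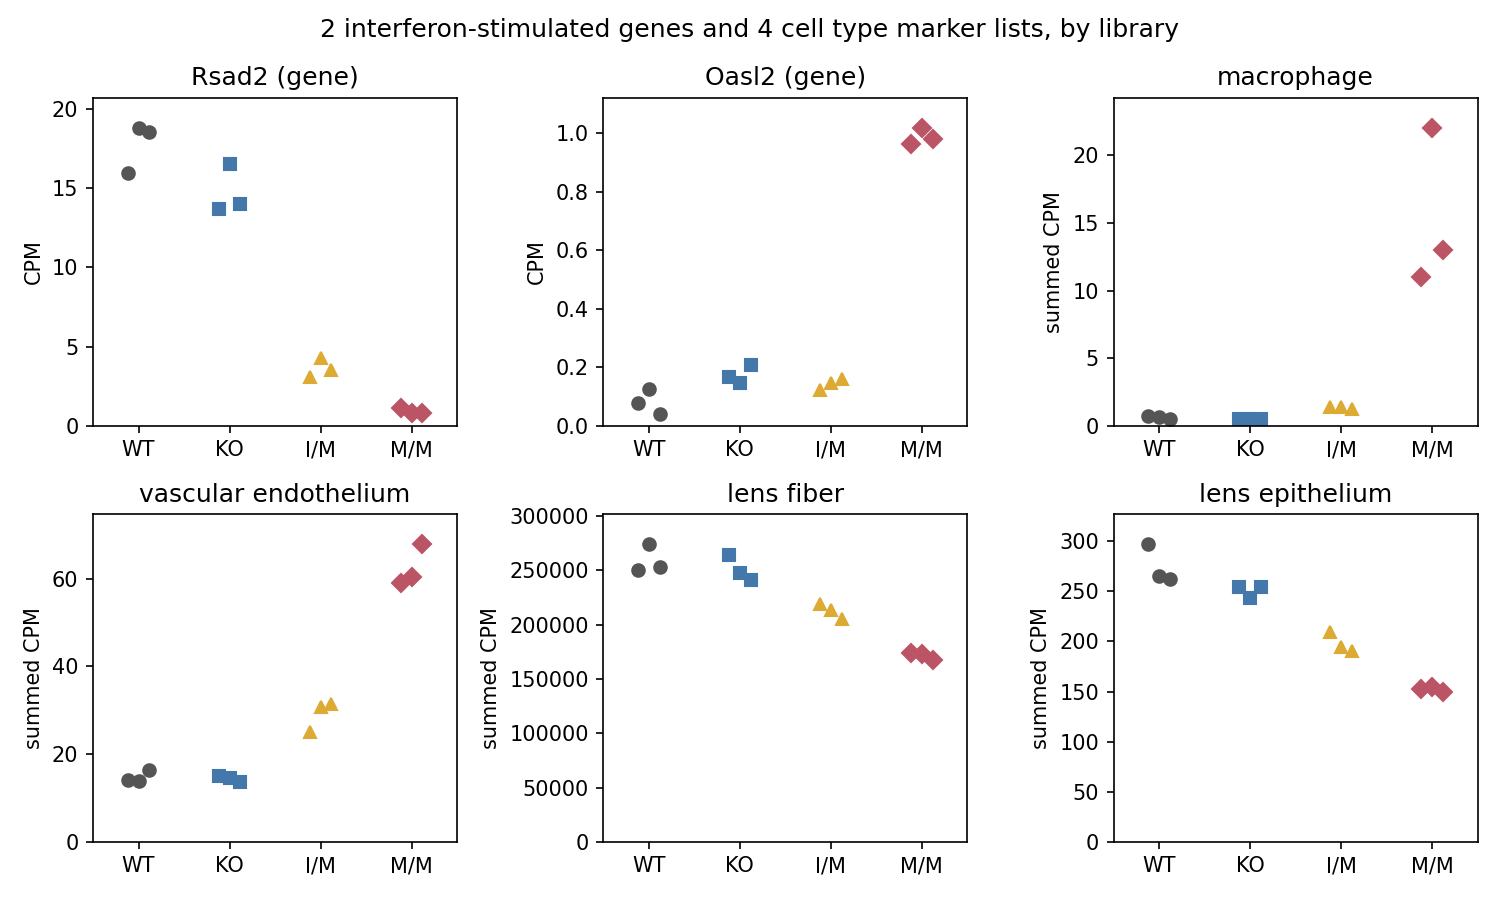
Level of *Rsad2* and *Oasl2* (CPM) and summed level of 4 lists of cell type markers (summed CPM), each on a linear y axis from 0, in the 3 libraries (points) of wild-type (WT), *Trpm3*-KO (KO), *Trpm3*-I/M (I/M) and *Trpm3*-M/M (M/M) lenses. Macrophage markers were at 10.98 to 22.05 CPM in M/M and at most 1.38 CPM elsewhere, endothelial markers rose in I/M and M/M, and the summed lens markers were lowest in M/M.

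As a description with no test, the genes outside the list whose log2 CPM (with 0.1 added) over the 12 libraries was most like that of *Rsad2* were *Ngef*, *Car8*, *Epn3*, *Bcl2l13* and *Adamts18*, with Pearson r of 0.997, 0.994, 0.993, 0.992 and 0.991 across libraries that fall into genotypes. None of these is in the interferon lists used here, which cover 152 of the 55487 gene identifiers. *Ngef*, a guanine nucleotide exchange factor, was at 96.9 ± 2.88 CPM in wild-type, 94.3 ± 1.39 in the *Trpm3*-KO, 46.4 ± 0.852 in the *Trpm3*-I/M and 26.1 ± 2.50 CPM in the *Trpm3*-M/M lenses. *Car8*, a catalytically inactive member of the carbonic anhydrase family, was at 7.05 ± 0.349, 5.93 ± 0.181, 1.68 ± 0.280 and 0.600 ± 0.128 CPM in the same order. As these genes were picked for their likeness to *Rsad2*, they share its order of genotypes by choice. Wild-type and *Trpm3*-KO were high, *Trpm3*-I/M between and *Trpm3*-M/M low.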

How the data were processed

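Poly-A RNA of pooled P7 lenses was sequenced in 12 libraries. The authors aligned and counted reads with DRAGEN (build mm10) and deposited estimated counts per gene, neither normalized nor pooled; 88.4% were whole, and all were rounded before fitting, although whole-number counts had been assumed when the tests were chosen. The authors also deposited edgeR fold changes, p-values and CPM, which were not used. Repeated rows (168 identifiers) were used once. TMM scaling and quasi-likelihood fits used edgeR 4.0.16 on all 12 libraries with genotype as the only factor, and Benjamini–Hochberg adjustment within each comparison. DESeq2 1.42.0 was an alternative. The members and gene lists were chosen with earlier results of these data known.

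Members, pathway genes called under the study's filter, the 2 most abundant genes of each list, neighbours and the 5 most alike genes were named. Positions came from GENCODE for GRCm38. Nothing states that libraries of a genotype came from separate litters, so p-values measure the spread between pools. Depth limits precision, and counting error alone is large below 10 counts. The procedure was tested on simulated data. Alternatives were other scalings, filters and tests, a replicate block and leaving out each library. Results for some pathway genes are not reported here.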

Additional observations from a re-analysis of the deposited data

How the results depend on the processing

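Counts of called genes are given as reported and then under the alternative. For members in *Trpm3*-M/M against wild-type, 1 became 2 at a CPM of at least 1, 3 with no filter and 4 at a mean of at least 5 counts, and these 4 became 2 in DESeq2 and 2 to 4 when single libraries were left out. For *Trpm3*-M/M against *Trpm3*-I/M, 1 became 2, 4 and 4 under the same filters and 0 with the compared genotypes only, where *Rsad2* no longer reached the filter, and the count of 4 was 2 to 4 with single libraries left out. For *Trpm3*-M/M against *Trpm3*-KO, 1 became 2, 4 and 4. For *Trpm3*-I/M against wild-type, 1 became 2 at a mean of 5 counts with no fold limit. Members below the filter went from 8 to 0 with no filter or a mean of 5 counts.

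For pathway genes in *Trpm3*-M/M, 8 became 27 with no fold limit, 15 by library size, 20 at a CPM of at least 1, 53 with no filter and 42 at a mean of 5 counts (70 with no fold limit), and 2 to 8 with single libraries left out, since with 2 *Trpm3*-M/M libraries genes that are high there only cannot reach 3. Over all 8984 tested genes 804 became 5637 with no fold limit and 1354 by library size. They became 1634 of 12638 at a CPM of at least 1 and 3455 of 32253 with no filter. At a mean of 5 counts they became 2888 of 17345, or 9071 with no fold limit. The pathway counts are to be read against these. In *Trpm3*-I/M, 1 became 9 (no fold limit), 0 (compared genotypes only), 3 (CPM of at least 1), 8 (no filter) and 5 (mean of 5 counts), and these 5 became 18 with no fold limit, 9 by library size, 3 with the compared genotypes and 3 with the replicate block. Over all genes tested in *Trpm3*-I/M, 299 became 2929 (no fold limit), 178 of 8107 (compared genotypes only), 663 of 12638 (CPM of at least 1) and 1215 of 32253 (no filter). At a mean of 5 counts there were 1050 of 17345, which became 3991 with no fold limit and 1260 by library size. In *Trpm3*-KO, 0 pathway genes became 1 with no filter, where 343 of 32253 genes were called.

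Replicate numbers did not pair the libraries, with correlations of same-numbered libraries from -0.264 to 0.149. With the replicate block *Rsad2* stayed at -4.28 in *Trpm3*-M/M and *Ifit3* at 1.33 was called (adjusted p = 0.0452). Of 601 member values refitted, 536 kept sign and call and 32 turned sign. No value of a call turned sign. By library size *Ifit2* was at 0.18, *Cmpk2* 0.22 and *Stat2* 0.33 in *Trpm3*-M/M, *Ifit3* 0.13 and *Isg15* 0.086 in *Trpm3*-I/M against wild-type, *Ifit1* 0.12 against *Trpm3*-I/M, and *Ifit2* 0.49 and *Stat2* 0.19 against *Trpm3*-KO. *Ifit2* against *Trpm3*-KO was 0.017 in DESeq2, 0.0054 with the compared genotypes, 0.0012 with the replicate block and 0.019 with no filter. With single libraries left out, values turned sign for *Ifit3* (-0.69 to 0.18) and *Isg15* (-0.70 to 0.29) in *Trpm3*-I/M and *Ifit1* (-0.11 to 0.10) and *Stat2* (-0.035 to 0.17) in *Trpm3*-KO against wild-type, for *Ifit2* (-0.036 to 0.34) and *Stat2* (-0.053 to 0.087) against *Trpm3*-I/M, and for *Ifit2* (-0.25 to 0.12) and *Cmpk2* (-0.071 to 0.19) against *Trpm3*-KO. The cause was not tested. Members other than *Rsad2* and *Stat2* had under 80 counts per library in wild-type, which limits what they can show.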
